A study of Homo sapiens with 8 samples.

Results

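Accessible chromatin on chromosome 5 was followed in U-937 cells, an established human myeloid leukaemia line with monocytic features. All peaks placed on this chromosome in 4 deposited peak lists were taken and merged within and across the lists, which left 6771 regions of 161291 on the 24 chromosomes. The members were chosen by position and by being called, so the fact that they were called is not a result. The assay was ATAC-seq, in which a transposase cuts open DNA and the inserted adapters are sequenced. Cells received DMSO (the vehicle), all-trans retinoic acid (ATRA, 0.1 µM), Corin (0.1 µM) or ATRA and Corin together (0.1 µM each) for 24 h. Each group had 2 samples, and each group had 1 list in the files, pooled over its samples. There was therefore no spread between replicates to set a difference against, and no p-value was computed. Intervals below are 95% Wilson intervals over regions, which cover counting error over regions only; neighbouring regions are not independent of each other.

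Retinoic acid acts through nuclear receptors bound to DNA and drives myeloid leukaemia cells towards maturation. Corin is a bifunctional inhibitor directed at the CoREST complex, which joins a histone demethylase and histone deacetylases and keeps target genes silent. Chromosome 5 carries the cytokine cluster of the long arm, the macrophage growth factor receptor gene CSF1R and the long-arm segments that are often deleted in myeloid neoplasms.

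The regions that led each set of changes are shown first, because the sets are described below by the motifs their summits hold. Each line is the 200 bp around the summit of the strongest region on chromosome 5 that was gained or lost, read on the plus strand from the hg38 reference. Capitals mark a motif match on either strand, namely AP-1 (TGANTCA), PU.1 (GAGGAAGT) or RUNX (TGTGGTT), where N is any base. The windows are chr5:115941161-115941360 (near LVRN, gained with ATRA), chr5:170306443-170306642 (near LCP2, lost with ATRA), chr5:151063287-151063486 (in TNIP1, gained with Corin), chr5:31244999-31245198 (in CDH6, lost with Corin and with the combination), chr5:33300262-33300461 (nearest coding gene TARS1, gained with the combination) and chr5:150780230-150780429 (in SMIM3, lost with the combination).
LVRN, gained with ATRA: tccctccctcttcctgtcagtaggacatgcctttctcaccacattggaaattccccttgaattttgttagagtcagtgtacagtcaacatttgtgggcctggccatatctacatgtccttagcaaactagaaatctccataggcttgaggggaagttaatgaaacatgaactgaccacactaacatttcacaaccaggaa
LCP2, lost with ATRA: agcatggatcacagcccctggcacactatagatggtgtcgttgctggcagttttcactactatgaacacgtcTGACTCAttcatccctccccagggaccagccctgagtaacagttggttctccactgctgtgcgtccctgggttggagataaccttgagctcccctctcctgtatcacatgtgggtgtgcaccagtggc
TNIP1, gained with Corin: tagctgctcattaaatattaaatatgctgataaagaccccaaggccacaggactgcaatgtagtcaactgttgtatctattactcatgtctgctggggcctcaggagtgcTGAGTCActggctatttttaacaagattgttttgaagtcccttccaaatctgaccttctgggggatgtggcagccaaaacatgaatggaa
CDH6, lost with Corin: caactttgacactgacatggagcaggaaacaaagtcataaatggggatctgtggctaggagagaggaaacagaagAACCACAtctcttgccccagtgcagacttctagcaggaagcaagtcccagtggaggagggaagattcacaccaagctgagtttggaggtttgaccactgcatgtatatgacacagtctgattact
TARS1, gained with the combination: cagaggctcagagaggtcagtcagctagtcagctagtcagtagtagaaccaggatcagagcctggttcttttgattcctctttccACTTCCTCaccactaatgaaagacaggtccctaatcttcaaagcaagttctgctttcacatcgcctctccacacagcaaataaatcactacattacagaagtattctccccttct
SMIM3, lost with the combination: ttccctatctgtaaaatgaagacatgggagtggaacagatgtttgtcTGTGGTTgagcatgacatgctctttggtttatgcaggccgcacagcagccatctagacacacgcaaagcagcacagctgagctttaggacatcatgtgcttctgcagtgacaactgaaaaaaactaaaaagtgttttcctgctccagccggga
The LCP2 and TNIP1 windows each held 1 AP-1 match. The CDH6 and SMIM3 windows each held 1 RUNX match, the TARS1 window held 1 PU.1 match, and the LVRN window held none of the 8 motifs searched. A match describes letters and is not a measured binding site.

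The DMSO list held 4921 regions on chromosome 5, the ATRA list 5564, the Corin list 4219 and the combination list 4071. The chromosome thus had more called regions with ATRA and fewer with Corin, alone or with ATRA. Against DMSO its number of regions changed by 13.1% with ATRA, while that of the other 21 autosomes together changed by -3.31%. This was the highest value of the 22 autosomes, of which 10 had more regions with ATRA and 12 had fewer, down to -29.1% on chromosome 13. With Corin the change was -14.3% (other autosomes -12.5%, rank 16 of 22), and with the combination it was -17.3% (other autosomes -18.6%, rank 11 of 22). The excess over the other autosomes with ATRA, 16.4 percentage points, was 7.1 points when the 4 lists were cut to equal length, where the chromosome still ranked first at 6.73%.

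Chromosome 5 was sparsely covered, with 27.1 regions per Mb in the DMSO list against 40.2 on the other autosomes. Its DMSO regions were stronger, with a median −log10 p of 51.5 against 41.1, and its ATRA regions were weaker, at 63.6 against 73.3. The −log10 p and the fold are the authors' peak values; they rank regions within a list and give the background described further on. Values of 1 region in several lists stand side by side as a description, since the lists may differ in depth, and no change in strength is read from them. Of the chromosome's DMSO regions, 45.0% lay in the weaker 50% of all DMSO regions; of its ATRA regions, 53.2% lay in the weaker 50% of the ATRA list. The lowest −log10 p on chromosome 5 was 2.79 in the DMSO list and 2.00 in the other 3, which are the values just inside the authors' call limit; peaks below it were not analysed here. Only 0.018% of the ATRA regions, 0.19% of the Corin regions and 0.123% of the combination regions on chromosome 5 lay below the DMSO minimum.

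**Figure D1:**
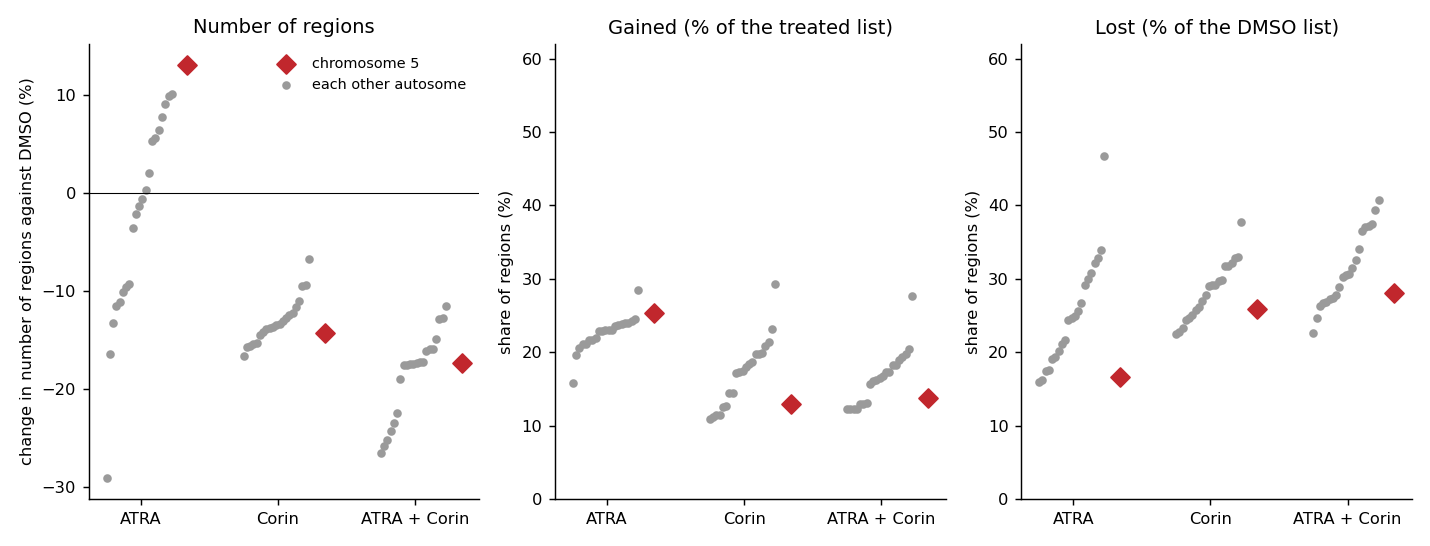
Each point is 1 autosome and the red diamond is chromosome 5; the panels give, for each treatment, the change in the number of regions against DMSO, the share of the treated list gained and the share of the DMSO list lost (all in percent). Chromosome 5 has the highest change in number with ATRA (13.1%) and the lost share with ATRA (16.6%) lies near the low end, while its other values lie inside the range of the other autosomes.

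A region was called gained when no region of the DMSO list overlapped it by at least 1 bp, and lost when a DMSO region had no such counterpart in the treated list. With ATRA, 1406 of 5564 regions on chromosome 5 were gained (25.3%, interval 24.1% to 26.4%); 23.1% of all regions of the ATRA list were gained, and the chromosome ranked second among the 22 autosomes after chromosome 4 (28.5%). In the same comparison 816 of 4921 DMSO regions were lost (16.6%, interval 15.6% to 17.6%), against 25.3% of all DMSO regions. Only chromosomes 17 (16.0%) and 12 (16.2%) lost a smaller share, and chromosome 13 lost 46.7%. The lost share was 9.30 percentage points below that of the other autosomes (interval -10.34 to -8.20), and 3.01 points below it with lists of equal length. The gained share was 2.30 points above that of the other autosomes, and it was -0.61 points from that of the neighbours in size, chromosomes 4 and 6.

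With Corin the balance on chromosome 5 was the opposite, with more regions lost than gained. There were 543 gained regions of 4219 (12.9%, interval 11.9% to 13.9%; 17.7% over all regions of the Corin list) and 1275 lost regions of 4921 (25.9%, interval 24.7% to 27.2%; 28.5% over all DMSO regions). With the combination, 561 of 4071 regions were gained (13.8%, interval 12.8% to 14.9%; 16.7% over the whole list) and 1380 were lost (28.0%, interval 26.8% to 29.3%; 31.5% over all DMSO regions). These 4 shares ranked 14 to 16 from the top of the 22 autosomes, all below the shares of the other autosomes. Both lost shares turned to the other side with lists of equal length, at 0.77 points above the other autosomes for Corin and 0.94 points above for the combination.

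Nearly all of these changes were among weak regions. In the strongest 20% of each list, no chromosome 5 region was gained with any treatment, and 1 of 971 DMSO regions was lost, the LCP2 region with ATRA. In the stronger 50%, 3.30% of 2604 regions were gained with ATRA, 1.01% of 2365 with Corin and 0.913% of 2082 with the combination, against 3.28%, 1.16% and 1.12% on the other autosomes. Of 2707 DMSO regions in that class, 1.40%, 3.07% and 5.02% were lost, against 1.56%, 2.52% and 4.27%. Of regions gained with ATRA 11.2% lay within 1 kb of a transcript start, and of those lost 14.5% (other autosomes 12.7% and 15.6%). The share was 27.6% for DMSO regions with a counterpart in every list, but 14.3% for those of them in the weaker 50%, near the shares of the changed regions. The 11.2% was 20.5% with a limit of 2.5 kb and 3.91% with coding transcripts alone.

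Since the lists ranked chromosome 5 differently, the shares were also read at equal strength, in 10 classes of −log10 p within each list. At the other autosomes' rate per class, 942 losses with ATRA would be counted in place of 816, a ratio of 0.87. The gap lay in the weak classes: in the second weakest, 59.5% of 333 regions were lost (interval 54.1% to 64.6%) against 72.2% elsewhere, and in the third, 34.9% of 438 (interval 30.6% to 39.5%) against 46.7%. In the fourth class and in the one above it the interval held the value of the other autosomes. The matching ratios were 1.06 for regions gained with ATRA, 1.01 for those gained with Corin, 1.0 for those gained with the combination, and 1.10 and 1.07 for those lost with them. At equal strength, then, chromosome 5 lost fewer weak regions than the other autosomes with ATRA and somewhat more with Corin or the combination.

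**Figure D2:**
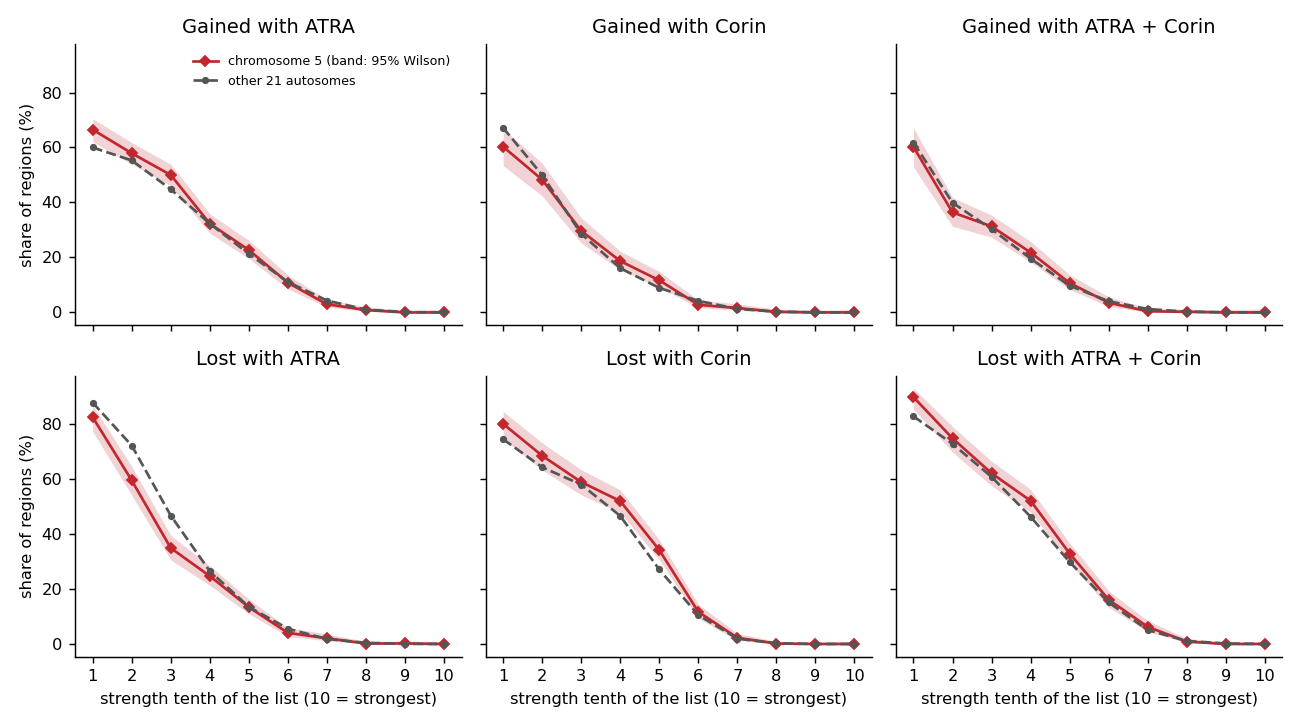
The share of regions gained (top) or lost (bottom) is drawn against the strength class of the region in its own list (10 is the strongest), for chromosome 5 (red, band: 95% Wilson interval) and the other 21 autosomes (grey). Shares fall towards 0 in the strongest classes everywhere, and the red line lies below the grey one for regions lost with ATRA in the weak classes (59.5% against 72.2% in the second).

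Across the 22 autosomes, the change in the number of regions with ATRA went with the strength of the DMSO regions. The Spearman correlation with the median DMSO −log10 p was 0.70 and the Pearson correlation 0.81 (0.69 without chromosomes 13 and 17, the farthest from the median), with Corin they were 0.15 and 0.08, and with the combination 0.63 and 0.62 (0.71 without the same chromosomes). These values describe 22 autosomes within pairs of lists, and the DMSO list enters both measures. The part of peak strength in the result for chromosome 5 was not tested beyond the classes above.

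Over the union of the lists, 3038 of the 6771 regions (44.9%, interval 43.7% to 46.1%) were called in all 4, against 40.8% on the other autosomes. The next most frequent pattern was ATRA alone, with 1009 regions (14.9%; other autosomes 11.2%; second of 22 after chromosome 4), or 583 with lists of equal length. Regions found with DMSO and ATRA but in neither list with Corin numbered 463 (6.84%, other autosomes 5.04%), the highest share of the 22. The patterns of DMSO and ATRA with 1 more list were also at their highest here, DMSO with ATRA and Corin (222, 3.28%) and DMSO with ATRA and the combination (300, 4.43%). In contrast, regions missing from the ATRA list alone were at their lowest share of any autosome, 96 or 1.42% against 2.52%. DMSO-only regions made up 6.85% (464), against 10.4% elsewhere.

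The lists were also split by compound. Regions present in exactly the 2 lists with ATRA, or exactly the 2 without it, numbered 478, and those present in exactly the 2 lists with Corin, or the 2 without it, numbered 541. The crossed patterns, which follow neither compound, held 49 regions. The ratio to the crossed patterns was 9.76 for ATRA (other autosomes 5.11) and 11 for Corin (other autosomes 4.50). The share split by Corin, 7.99%, was the highest of the 22 autosomes (others 6.57%). Most of it was the 463 regions in exactly the 2 lists without Corin. Those in exactly the 2 lists with Corin numbered 78 (1.15%), below the others (1.54%). The share split by ATRA, 7.06%, was below that of the others (7.47%) at rank 13, so its higher ratio came with fewer crossed regions (0.724% against 1.46%). Its 2 parts went opposite ways. Regions in exactly the 2 lists with ATRA numbered 262 (3.87%, others 3.16%, rank 3 of 22). Those in exactly the 2 lists without it numbered 216 (3.19%, others 4.31%, rank 17).

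**Figure D3:**
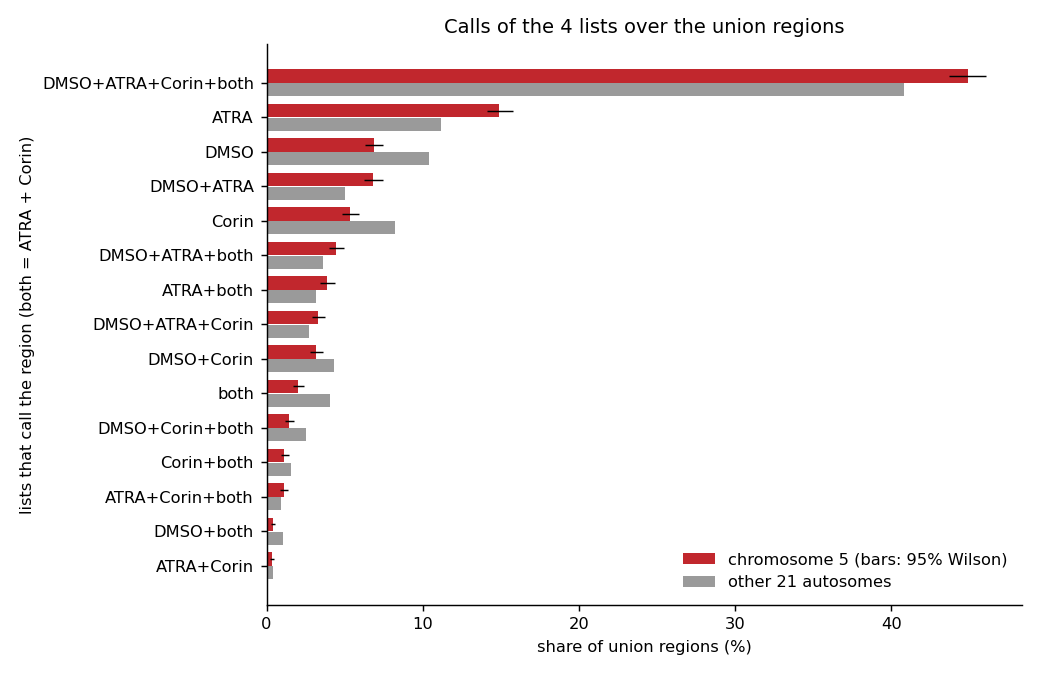
Bars give the share of union regions (percent) called by each combination of the 4 lists, on chromosome 5 (red, error bars: 95% Wilson interval) and on the other 21 autosomes (grey). Patterns with an ATRA call and without a Corin call are longer on chromosome 5 (ATRA alone 14.9% against 11.2%), and patterns without an ATRA call are shorter (DMSO alone 6.85% against 10.4%).

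The ATRA list was the longer one on chromosome 5 in the comparison with the combination. Of the 5564 ATRA regions, 1743 had no counterpart in the combination list (31.3%, interval 30.1% to 32.6%; 28.4% over all ATRA regions; second of 22). Of the 4071 combination regions, 346 were absent with ATRA (8.50%, interval 7.68% to 9.40%; 15.5% over the whole list), 0.78 times the number at the other autosomes' rate per strength class. With lists of equal length these counts were 1057 and 499. Against Corin alone, 740 combination regions were new (18.2%, interval 17.0% to 19.4%; 20.6% over the whole list) and 850 of 4219 Corin regions were missing (20.1%, interval 19.0% to 21.4%; 25% over the whole list). The comparisons of the combination share its list, so these shares are not independent of each other.

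Along the chromosome, regions gained with ATRA were spread more evenly than those lost when the full lists were used. Counts per 5-Mb bin varied 1.96 times as much as binomial sampling gives for regions gained with ATRA and 6.18 times for regions lost with ATRA. The values were 3.27 and 2.28 for gained and lost with Corin, and 2.22 and 3.97 with the combination. All 6 lay at ranks 8 to 14 of the 22 autosomes, inside the range of the others. With lists of equal length the value for regions lost with ATRA was 1.95, near the 1.96 of regions gained in the full lists. The difference in evenness thus depended on list length. The widest stretch without a region ran over 3.75 Mb around the centromere (chr5:45905944-49658572). After it, towards the long arm, lay 3922 of the 4921 DMSO regions. The short-arm side lost a larger share with every treatment, 21.9%, 30% and 35.3% for ATRA, Corin and the combination against 15.2%, 24.9% and 26.2% on the other side. Of its 219 losses with ATRA, 78 lay in the first 5 Mb. At equal strength its ratios to the other autosomes were 0.99, 1.14 and 1.21, against 0.83, 1.09 and 1.03 on the long-arm side.

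The first 5 Mb of the short arm stood out at the low end of the chromosome, and it was singled out after its values were seen. It held 172 regions with DMSO, 113 with ATRA, 169 with Corin and 122 with the combination. Both lists with ATRA were thus shorter there than both without it. With ATRA 45.3% of its DMSO regions were lost (78 of 172, interval 38.1% to 52.8%), with Corin 36.0% and with the combination 47.1%. On other autosomes 25 of 481 windows of the same size lost a larger share with ATRA. Corin also gained 33.1% of its regions there (56 of 169). Its DMSO regions were weak, with a median −log10 p of 18.8 against 51.5 on the whole chromosome. At equal strength 36.5% of them would be lost with ATRA, a ratio of 1.24. The ratios were 0.95 for loss with Corin, 1.12 for loss with the combination and 1.09 for gain with Corin, and the interval of each observed share held the value at equal strength. The pileup of reads at its 66 regions present in all 4 lists, relative to that at such regions on the autosomes, was 1.21, 1.01, 1.22 and 1.09 in the order DMSO, ATRA, Corin and combination. Within it, the 100-kb window with the most losses (chr5:1400001-1500000), which holds LPCAT1, a phospholipid-remodelling enzyme gene, and the dopamine transporter gene SLC6A3, lost 10 of 18 regions with ATRA and 11 of 18 with the combination. With Corin, 7 of 18 regions were gained in the window chr5:300001-400000 and 7 of 19 in chr5:400001-500000. Both overlap AHRR, the repressor of the aryl hydrocarbon receptor. The first also overlaps PDCD6, and the second EXOC3 and SLC9A3. Around BRD9, a subunit gene of a chromatin remodelling complex, 7 regions with DMSO and 8 with Corin stood against 2 with ATRA and 3 with the combination.

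The 30 Mb from 50 to 80 Mb on the long arm moved the other way, and they too were chosen after the values were seen. They held 745 regions with DMSO, 1008 with ATRA, 640 with Corin and 718 with the combination. The list with ATRA was higher than all others, and its 35.3% rise over DMSO compares with 11% on the chromosome outside both stretches. Of the ATRA regions there, 32.6% were gained (329 of 1008, interval 29.8% to 35.6%), and 7 of 437 windows of the same size on other autosomes were higher. Of the DMSO regions there, 9.40% were lost with ATRA (70 of 745, interval 7.50% to 11.7%), below each of the 438 windows elsewhere, whose lowest value was 10.1%. Regions found in exactly the 2 lists with ATRA made up 6.70% of the union regions (75 of 1120), against 3.16% on the other autosomes, and 6 of 442 windows were higher. The combination gained 18.5% there, 1.33 times the number at equal strength, and ATRA 1.30 times; for the combination 100 of 435 windows elsewhere were higher. The windows of 30 Mb elsewhere were moved along in steps of 5 Mb, and those with fewer than 300 regions were left out. Neighbouring windows therefore share most of their span, and the numbers of windows are not numbers of independent stretches. The relative pileup of the 507 regions from 50 to 80 Mb present in all 4 lists was 0.72 with DMSO, 0.82 with ATRA, 0.74 with Corin and 0.82 with the combination. It was thus higher in both lists with ATRA than in both without it. Copy number was not measured in these lists, and the part of the pileup in the counts was not tested.

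**Figure D4:**
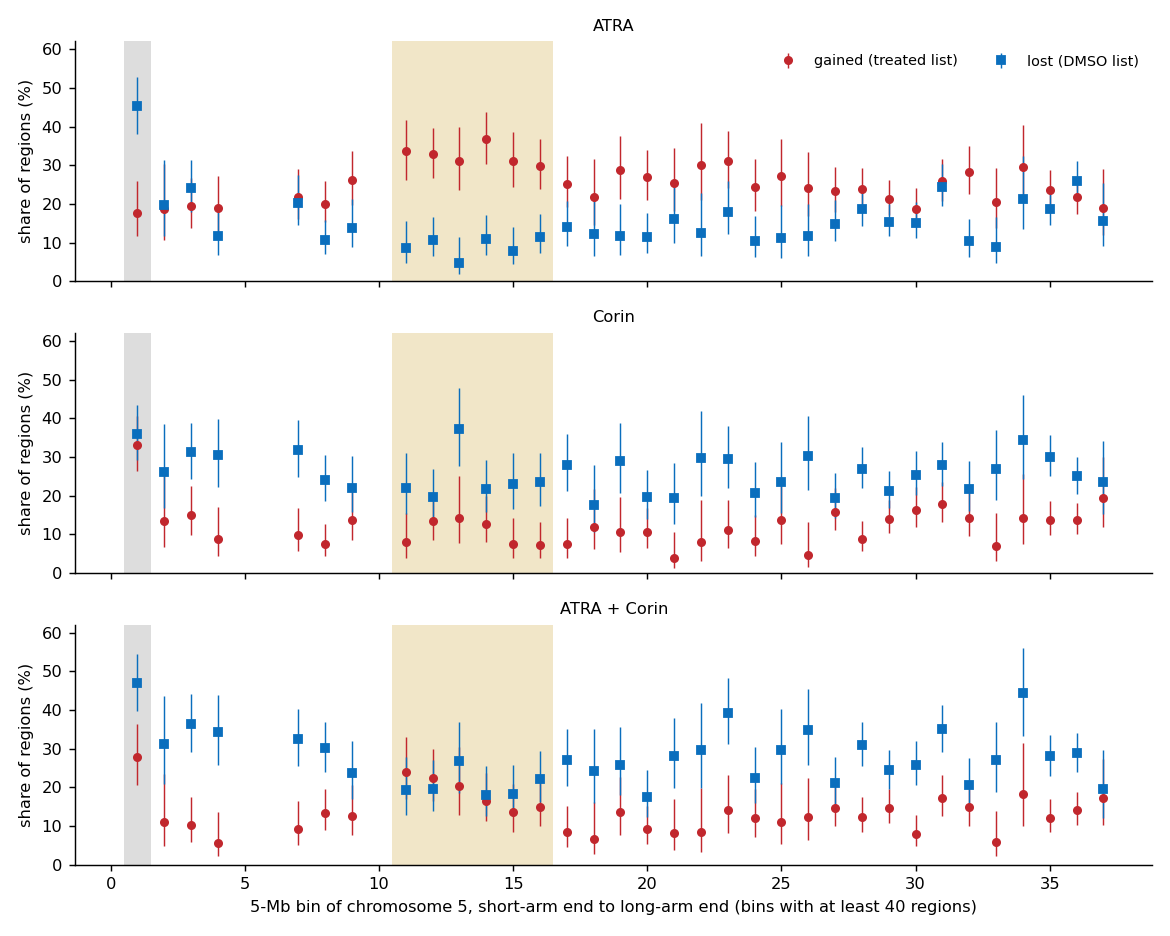
For each 5-Mb bin with at least 40 regions, ordered from the short-arm end to the long-arm end, red circles give the share of the treated list gained and blue squares the share of the DMSO list lost (percent, bars: 95% Wilson interval); the grey band is the first 5 Mb and the yellow band 50 to 80 Mb. With ATRA, loss is highest in the first bin (45.3%), and in the yellow band gain (32.6%) lies above loss (9.40%).

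Outside both stretches chromosome 5 still differed from the other autosomes in loss with ATRA. There, 668 of 4004 regions were lost (16.7%, 0.88 times the number at equal strength), and 1057 of 4443 ATRA regions were gained (23.8%, a ratio of 1.01). The excess of regions gained with ATRA over the other autosomes was 0.67 percentage points without 50 to 80 Mb.

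The background under the peaks was lower on chromosome 5 than elsewhere in every list. It was recovered from the authors' fold and −log10 p. A region was placed at the list's floor when its background was within 1% of the list's most frequent one. The share at the floor was 38.3% with DMSO (interval 37.0% to 39.7%), 44% with ATRA, 36.2% with Corin and 39.6% with the combination. The median background, relative to the most frequent one, was 1.23, 1.19, 1.28 and 1.25 in these lists, against 1.45, 1.53, 1.46 and 1.48 on the other autosomes. There the share at the floor was 28.1%, 34.6%, 27.4% and 28.6%, and chromosome 5 ranked second of 22 in the first 3 lists, after chromosome 4, and first in the last. The relative pileup of the 3038 regions in all 4 lists was 0.89, 0.88, 0.88 and 0.84, which were close in the 3 lists other than the combination. The low loss with ATRA was present at both levels: 22% of floor regions were lost against 36.2% elsewhere, and 13.2% of those above the floor against 21.8%. It was not particular to ATRA. Loss with Corin was 42.6% against 46.6% at the floor and 15.5% against 21.6% above it. With the combination it was 44.3% against 49.5% and 18.0% against 24.8%. The 2 levels were not matched for strength. Regions gained with ATRA were 40.2% of floor regions and 13.6% of the others, against 39.0% and 14.5% elsewhere. Those gained with Corin were 18.4% and 9.73%, against 28.6% and 14.1%. Those gained with the combination were 20.3% and 9.48%, against 26.2% and 13.2%.

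The strongest regions gained with ATRA lay near LVRN (chr5:115940967-115941775, −log10 p 268, fold 20.9), TENT2 (chr5:79590142-79591139, −log10 p 249) and ELL2 (chr5:96043426-96044044, −log10 p 218). LVRN encodes an aminopeptidase, TENT2 a poly(A) polymerase and ELL2 a transcription elongation factor. All 3 were absent from the DMSO and Corin lists and present with the combination (−log10 p 47.8, 63.8 and 75.1). The first and second lay in no annotated protein-coding or long noncoding RNA gene, 20679 bp and 20981 bp from the nearest coding start.

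Those lost with ATRA included a region 8529 bp from the start of LCP2, an adaptor gene of immune receptor signalling (chr5:170306344-170306706, −log10 p 242) and one in an intron of the aminopeptidase gene LNPEP (chr5:96963197-96963600, −log10 p 117). The LCP2 region overlapped an exon of the noncoding gene ENSG00000288615. Corin kept both, with a −log10 p of 236 and 76.2. The combination kept the LCP2 region at 20.6 and did not call the LNPEP region.

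With Corin the leading gains were in TNIP1, an inhibitor gene of NF-κB signalling (chr5:151063203-151063679, −log10 p 156), in an intron of the B-cell factor gene EBF1 (chr5:158942987-158943353, 115) and in an intron of the DNA repair gene XRCC4 (chr5:83320853-83321424, 97.5). With the combination these had a −log10 p of 14.8, 7.56 and 19.2. The XRCC4 region was also called with ATRA, at 18.2, and the first and second were not. The leading losses with Corin lay in the cadherin gene CDH6 (chr5:31244555-31245601, −log10 p 170), in RETREG1, a gene of endoplasmic reticulum turnover (chr5:16552653-16553043, 102), and in PWWP2A (chr5:160080890-160081282, 93.7). ATRA alone kept them at 139, 49.8 and 130, and the combination called none of the 3.

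With the combination the strongest gain lay 139819 bp from TARS1, a tRNA synthetase gene (chr5:33299527-33300877, −log10 p 225; with ATRA 143, with Corin not called). The others lay 1252 bp from the start of MGAT1, a gene of N-glycan synthesis (chr5:180816904-180817545, 169), and in an intron of the actin nucleator gene DIAPH1 (chr5:141519847-141520539, 153). Both were called with each compound alone, at 64.1 and 65.3 with ATRA, 18.9 and 36.6 with Corin. The strongest loss, in an intron of SMIM3 1149 bp from its start (chr5:150779906-150780652, −log10 p 190), was present with ATRA at 20 and with Corin at 85.1. The CDH6 region was also lost, and so was one in an intron of the adhesion gene CTNNA1 (chr5:138698399-138699335, 154), which ATRA kept at 134 and Corin at 17.2. In the other direction, regions common to all lists that ranked among the strongest covered the starts of RBM27 (chr5:146203088-146204105) and ARHGAP26 (chr5:142769702-142771375).

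Genes of chromosome 5 were grouped by role, with regions counted within the gene and 10 kb on either side. Of 84 listed genes, 63 had a region within 1 kb of a transcript start in all 4 lists, 13 in none and 8 in some; over all 881 coding genes of the chromosome the numbers were 548, 277 and 56. Of 22 monocyte and macrophage genes, 14 (63.6%) had a region gained with ATRA and 12 (54.5%) one lost; over all coding genes the shares were 51.6% and 37.8%. Some other lists were higher: of 16 general cellular genes, 68.8% had a gain and 68.8% a loss with ATRA, and of 12 receptor genes 91.7% had a gain. The general list included TERT, whose promoter was called with DMSO (−log10 p 37.7) and Corin (36.3) only. With Corin 63.6% of the monocyte and macrophage genes had a gained region, against 33.3% of all coding genes and 66.7% of the receptor genes. The median of the monocyte and macrophage genes was 2.0 gained regions with ATRA per gene, against 1.0 over all coding genes. Long genes hold more regions, so these shares are not set against length. DOCK2, a guanine exchange factor gene of leukocyte migration, had 24 regions with DMSO, 33 with ATRA, 25 with Corin and 21 with the combination, with 12 gained and 5 lost with ATRA. FYB1, an adaptor gene of immune cells, had 18, 26, 17 and 19, with 8 gained and 0 lost with ATRA. The promoter region of CSF1R, the macrophage growth factor receptor gene, was called in every list, with a −log10 p of 169, 309, 296 and 320. Of the 22 monocyte and macrophage genes, 18 had a promoter region in every list, 2 in some and 2 in none (CD14 and VCAN). CD14 had 0 regions gained and 1 lost with ATRA, and TNFAIP8 had 4 gained and 5 lost. CD180 had a promoter region in every list except that of ATRA.

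A few promoters differed in their calls. At TGFBI, an extracellular matrix gene of macrophages, the strongest region within 1 kb of any transcript start had a −log10 p of 4.85 with DMSO and 52.9 with ATRA, and none was called with Corin or the combination. The DMSO region (chr5:136047939-136048193) lay inside the gene, away from the gene's own start at 136028988. At TIFAB, a regulator gene of innate signalling in the deleted segments, the values were 12.9 with DMSO and 84.2 with ATRA, with no call in the other lists. Neither gene had a region within 1 kb of a transcript start in a list with Corin. The other 14 of the 15 genes listed from the deleted segments had a promoter region in every list. LIFR, a cytokine receptor gene, had none with DMSO and 38.6, 12.4 and 48.7 with ATRA, Corin and the combination. CXCL14, a chemokine gene, had 28.0 with DMSO, 34 with Corin and 13.8 with the combination, and none with ATRA. Among the 9 cytokine genes, 5 had no promoter region in any list, and CSF2, the gene of a myeloid growth factor, had one with Corin only (−log10 p 15.9).

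The cell line's own markers were looked at over all chromosomes. Of 8 genes of monocytic leukaemia cells, 7 had a promoter region with DMSO and MPO did not. Of 5 markers of other lineages, 3 had one, among them GATA1 and EPCAM with weak ones (−log10 p 4.82 and 6.19), and CD3E and ALB had none.

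The motif content of changed regions on chromosome 5 differed between gained and lost, and in opposite senses for the compounds taken alone. A match was counted within the 200 bp around the summit, on either strand. PU.1, the myeloid master factor, had a match in 11.5% of regions gained with ATRA (162 of 1406; other autosomes 12.3%, rank 16 of 22) and 2.21% of those lost (18 of 816), a difference of 9.3 percentage points (interval 7.3 to 11.3). With Corin the order was reversed, at 2.39% of gained and 8.47% of lost regions. AP-1, the dimer of FOS and JUN proteins, had a match in 7.82% of regions gained with ATRA and 18.8% of those lost (153 of 816), a difference of -10.9 points (interval -14.0 to -8.0). With Corin it was in 32.8% of gained regions (178 of 543) and 6.43% of lost ones, a difference of 26.3 points (interval 22.3 to 30.6). With the combination the AP-1 shares were 11.4% and 13.3%, with an interval of the difference from -5.0 to 1.4, and the PU.1 shares were 10.2% and 4.78%. Among all DMSO regions of the chromosome, AP-1 was in 14.3% and PU.1 in 7.13% (other autosomes 12.4% and 6.07%). The order of gained and lost was the same on the other autosomes. There AP-1 was in 6.42% and 13.3% with ATRA, 19.9% and 6.83% with Corin, and 8.65% and 11.3% with the combination. PU.1 was in 12.3% and 1.98%, 2.33% and 5.37%, and 7.47% and 3.62%. On chromosome 5, regions gained and lost with ATRA also differed in mean GC content (43.0% and 52.1%) and median −log10 p (19.0 and 9.53).

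Some motif shares were the highest of any autosome, although PU.1 in ATRA gains was not. The AP-1 share of regions gained with Corin was the highest of the 22 autosomes (others together 19.9%, lowest 11.9% on chromosome 13). Regions of the other autosomes weighted to the same strength and GC content had 28.9%, close to the lower bound of the interval on chromosome 5 (29.0%). For regions lost with ATRA the AP-1 share also ranked first, at 18.8% against 13.3% elsewhere. The 17.5% at the same strength and GC content lay inside its interval (16.2% to 21.6%). PU.1 in regions lost with Corin ranked first too, at 8.47% (interval 7.06% to 10.1%) against 5.37% and, weighted, 6.42%. RUNX, in 9.63% of regions gained with the combination, was at the top as well (others 6.49%, weighted 8.04%). The spacer-5 direct repeat bound by retinoic acid receptors was found in 2 of 1406 regions gained with ATRA and in 0 of 816 lost, and the GFI1 motif in 2 of 543 gained with Corin and 0 of 1275 lost, numbers too small to compare.

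**Figure D5:**
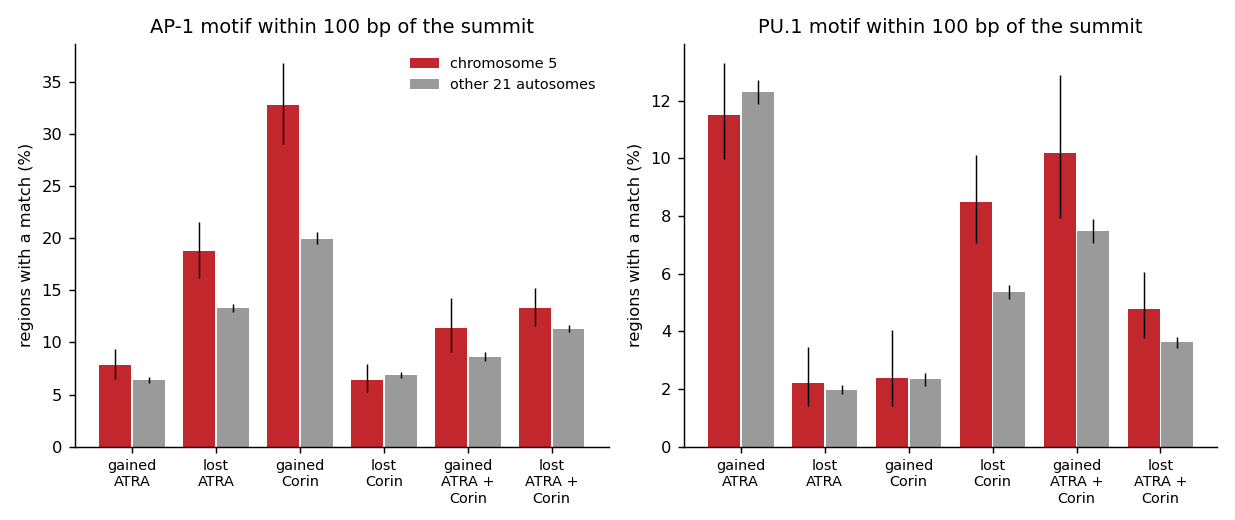
Bars give the share of gained and lost regions (percent) with an AP-1 (left) or PU.1 (right) match in the 200 bp around the summit, on chromosome 5 (red) and the other 21 autosomes (grey), with 95% Wilson intervals. AP-1 is most frequent in regions gained with Corin (32.8% on chromosome 5) and PU.1 in regions gained with ATRA (11.5%).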

How the data were processed

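Per the labels, the 8 samples were ATAC-seq libraries of U-937 cells. Per the submitters' processing notes, reads went through cutadapt, Bowtie2, SAMtools, Picard and MACS2 on hg38; versions and thresholds are not given in the sources used here. The authors deposited 1 narrowPeak list per group. Its fold over background is a ratio, its p-value and q-value columns are −log10 values, as read from the deposited layout and values. The deposited peak score is the peak caller's display value, and was not used. The number of per-sample columns left unused was 0. Read depth is unknown. As a stand-in, pileup and background were solved from the authors' fold and −log10 p (whole pileups, within 0.05, for 99.96% to 99.98% of peaks).

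Overlapping peaks were merged into regions, and a counterpart needed 1 bp of overlap. Differences between shares carry Newcombe intervals. Distances and genes came from GENCODE release 44 and sequences from the hg38 reference, whose chromosome lengths held every peak. The 3 strongest regions of each set were named, with genes of 6 lists where their promoter calls differed or they held many changes; a few of these are not reported here. The members, lists and tests were chosen with earlier results of these data known. The calls were tested on simulated data and against bedtools 2.31.1; Python 3.11.15, pandas 2.3.3 and scipy 1.17.1 were used.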

Additional observations from a re-analysis of the deposited data

How the results depend on the processing

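The data hold 1 pooled list per group, so no replicate could be left out and counting error over regions is the only error given. No paired analysis was possible because each list pools the 2 samples of its group. Read depth is unknown. Most gained and lost regions of the chromosome lay in the weaker 50% of their list, 90.1% to 96.6% per set against DMSO. The median −log10 p of these sets was 9.21 to 19.0. Of the 110 differences in share between chromosome 5 and the other autosomes recomputed under 11 alternatives, 82 stayed within the interval of the reported value, 25 moved outside it and 3 changed sign; the cause was not tested. The chromosome kept the highest change in region number with ATRA in each of the 9 settings in which it was ranked (6.73% to 18.5%), and its lost share with ATRA ranked 2 to 4 from the lowest. The 9 include the reported setting. They also include the overlap of 50% and the distance of 500 bp, which cannot alter the number of regions.

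Differences below are chromosome 5 minus the other autosomes, in percentage points, and losses and gains are against DMSO. With a −log10 q of at least 5, loss was -4.98 with ATRA, -1.29 with Corin and -1.57 with the combination, and gain was -1.38 with Corin and -1.21 with the combination. Regions of the combination absent from ATRA were at -3.21, those absent from Corin at -0.75, and Corin regions absent from the combination at -1.14. The change in region number was 11.2 for ATRA and 0.2 for Corin, which reversed, and the unevenness over bins was 1.83 for gain with Corin and 3.73 for loss with ATRA. With a −log10 p of at least 5, loss with ATRA was -7.58, gain with Corin -3.35, combination regions absent from ATRA -5.61 and Corin regions absent from the combination -3.37.

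With lists of equal length, loss was -3.01 with ATRA and reversed to 0.77 with Corin and 0.94 with the combination, gain with the combination was -5.78, and Corin regions absent from the combination were at -2.95. The change in number was 7.1 for ATRA and -7.6 for Corin and reversed to -8.1 for the combination. Counts were 583 regions called with ATRA only and 1057 ATRA regions absent from the combination, and the unevenness of loss with ATRA was 1.95. With 10-Mb bins the unevenness of gain with ATRA was 3.37.

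Against chromosomes 4 and 6 alone, gain with ATRA reversed to -0.61, gain with Corin was -6.94 and with the combination -4.83, loss with ATRA was -6.97, ATRA regions absent from the combination were at 0.49 and combination regions absent from Corin at -4.53. The change in number was 9.0 for ATRA and reversed to -0.8 for the combination.

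Leaving out 50 to 80 Mb or the first 5 Mb, the shared lowest −log10 p and the strongest 50% were chosen after seeing the data. Without 50 to 80 Mb, gain with ATRA was 0.67, loss -8.01 with ATRA and -2.37 with the combination, Corin regions absent from the combination were at -3.82, and the change in number with the combination reversed to -1.1. Without the first 5 Mb, combination regions absent from ATRA were at -8.49. A shared lowest −log10 p moved none of the results it was run on. Among strong regions, 0 were lost with ATRA in the strongest 10%, and in the strongest 50% the counts were 86, 24 and 19 gained and 38, 83 and 136 lost with ATRA, Corin and the combination. The relative background with the mean in place of the median differed by -0.359, -0.698, -0.315 and -0.501 in the order DMSO, ATRA, Corin and combination, and in the weaker 50% of the list by -0.097, 0, -0.079 and -0.040. In that weaker 50% the share at the most frequent background was higher by 15.3 with DMSO, 13.9 with Corin and 15.3 with the combination. Merging within 150 bp, an overlap of 50%, a distance of 500 bp and leaving out contradicting peaks moved none of the differences and counts they were run on outside these limits; unevenness was not rerun under them. The 6 AP-1 and PU.1 differences between gained and lost regions kept their direction with 400-bp windows.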

Other observations

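Gained and lost regions were also counted, by their midpoints, in windows of 100 kb along chromosome 5, and the protein-coding genes overlapping the fullest windows were read from the annotation. The fullest windows for losses with ATRA and with the combination (at LPCAT1) and for gains with Corin (at AHRR) are given above.

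Regions gained with ATRA were found in 735 windows, and 3 or more of them in 173. The highest count, 7, was shared by 5 windows. Among them were chr5:52700001-52800000 at the integrin gene ITGA1 and PELO (13 ATRA regions), chr5:170100001-170200000 at FOXI1 (12), chr5:173900001-174000000 at CPEB4 and C5orf47 (11), and chr5:176800001-176900000 at the hexokinase gene HK3 and UNC5A (13). The strongest gained region of each of these had a −log10 p of 48.8, 92.6, 50.9 and 95.1.

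Losses with Corin were found in 700 windows, and 3 or more in 145. The highest count, again 7, was shared by 6 windows. These held 17 DMSO regions at LCP2 and C5orf58, 16 at COL23A1, HNRNPAB and PHYKPL, 14 at the RNA-binding protein gene LARP1, 13 at the sodium-proton exchanger gene SLC9A3, 10 at the mitotic checkpoint gene TRIP13, and 10 in a window with no protein-coding gene (chr5:135100001-135200000). Gains with the combination were highest at SLC9A3 (chr5:500001-600000), with 6 of 14 regions. Each window was chosen for its count, so these values are a description with no test.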
